A study of Mus musculus with 28 samples.

Results

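Macrophages in a tumour can be followed by a small set of genes that together define the lineage, and 9 of them are described here in leukocytes sorted from mouse tumours. They are Spi1, Maf, Csf1r, Adgre1, Ms4a7, Cd68, Dab2, Mertk and Trem2, taken as a list of names, and they are 9 of the 17097 genes measured. The list was chosen with earlier results of these data known, so counts of its members set beside all genes are not an independent test. The cells were sorted for CD45, a surface protein of haematopoietic cells, out of tumours of the melanoma line B16.F10 or the colon carcinoma line MC38, and their RNA was measured on 28 Affymetrix arrays. The hosts were of either genotype Foxp3Cre-YFP (control) or Nrp1L/LFoxp3Cre-YFP (called Nrp1-deleted here). All hosts thus carried the Cre recombinase and YFP under Foxp3, the gene of the factor that defines regulatory T cells, and the second genotype also carried floxed alleles of Nrp1, the gene of the co-receptor neuropilin-1. Deletion is therefore directed to Foxp3-expressing cells, and the macrophages themselves are not the target of the Cre. Host age and strain are not given in the sources used here.

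Each genotype was sampled in 6 settings of tumour and day, which gave 12 groups. The B16 settings are an early one, day 12 and day 18, and the MC38 settings are days 6, 12 and 18. For the early B16 arrays the titles give day 8 but the source names give day 6. B16 day 18 and MC38 day 12 had 3 arrays of each genotype, and the other 8 groups had 2 arrays each. The labels do not state whether replicate arrays are of separate mice, and the spread behind every p-value here may thus be technical. The arrays formed 3 sets by the shape of their value distributions: B16 day 18 with MC38 day 12, MC38 day 6 with day 18, and early B16 with B16 day 12. Levels were compared only inside a set. CD45 itself (Ptprc) had a log2 value of at least 11.5 on every array.

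Macrophages develop from monocytes or persist from embryonic precursors, and their identity is set by the transcription factor PU.1, encoded by Spi1, together with partners such as c-Maf, encoded by Maf. PU.1 drives Csf1r, the receptor tyrosine kinase for the growth factors CSF1 and IL-34, on which most macrophages depend for survival. The other members are proteins of the mature cell. Adgre1 encodes the adhesion receptor F4/80, Cd68 a glycoprotein of endosomes and lysosomes, Ms4a7 a tetraspan membrane protein, and Dab2 a clathrin adaptor for endocytosis. Mertk encodes a receptor that engulfs apoptotic cells through the bridging ligands GAS6 and protein S, and Trem2 a lipid-sensing receptor that signals through the adaptor DAP12 (Tyrobp). In tumours such genes are mostly read as a sign of tumour-associated macrophages.

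In B16 tumours 8 of the 9 genes were lower in Nrp1-deleted than in control hosts when the 3 settings were averaged, by 2.13-fold for Spi1 to 9.89-fold for Dab2, and Maf did not pass the test. In MC38 tumours 0 of the 9 passed, with differences between -0.42 and -0.001 on the log2 scale. These calls are from limma with Benjamini-Hochberg adjustment over all 17097 genes at 0.05, in a model fitted to all 28 arrays. Of all genes, 22.6% were called in B16 (12.3% lower) and 19.3% in MC38 (12.3% lower). The median difference of the 9 genes was -1.65 in B16, versus 0.01 over all genes, and -0.20 in MC38, versus -0.06 over all genes. RNA came from a mixed population, so fewer macrophages among the sorted cells and less RNA of a gene per macrophage cannot be told apart.

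**Figure D1:**
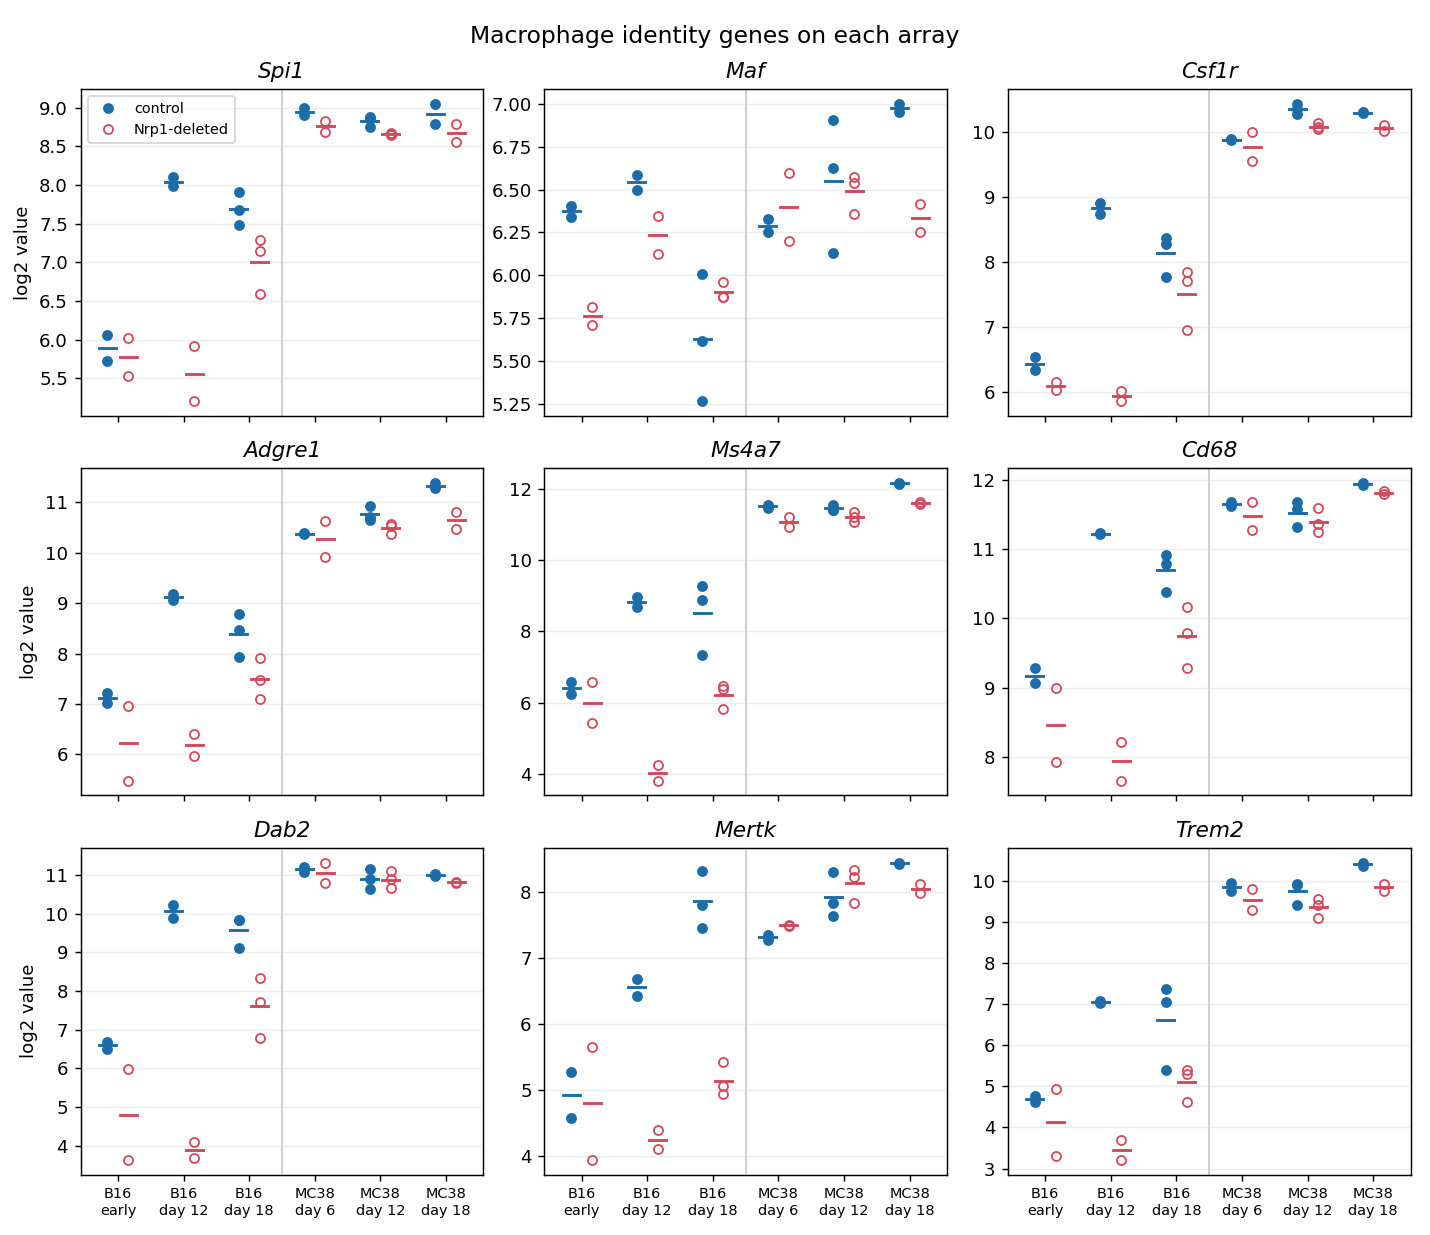
Log2 value (y axis) of each of the 9 genes on each of the 28 arrays, by tumour and day (x axis); filled blue points are control arrays, open red points Nrp1-deleted arrays, and short lines group means. Levels are comparable inside a set of arrays (early B16 with B16 day 12, B16 day 18 with MC38 day 12, MC38 day 6 with day 18). At B16 day 12 all Nrp1-deleted points lie below all control points for the 9 genes, with the widest gap for Dab2 (9.89 and 10.23 versus 3.70 and 4.09).

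Of the 2 transcription factors, Spi1 followed the genotype in B16 and Maf did not pass. Spi1 had log2 values of 6.06 and 5.73 on early B16 control arrays and 6.02 and 5.53 on early Nrp1-deleted arrays, which overlapped. At day 12 the control arrays were at 7.99 and 8.10 and the Nrp1-deleted arrays at 5.21 and 5.92. At day 18 they were at 7.91, 7.48 and 7.68 versus 7.29, 6.59 and 7.15. All control arrays thus lay above all Nrp1-deleted arrays at days 12 and 18. Averaged over the 3 settings Spi1 was lower by 1.09 ± 0.12 on the log2 scale (SE, adjusted p = 1.84e-07, limma), and lower in 3 of 3 settings. The day 18 difference alone was -0.68 (adjusted p = 0.00711, limma) and lost its call without deleted replicate 2 (-0.47, adjusted p = 0.0775).

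In MC38 tumours Spi1 differed little between the genotypes on each day. Control arrays were at 9.0 and 8.90 at day 6, at 8.88, 8.74 and 8.85 at day 12, and at 8.79 and 9.05 at day 18. Nrp1-deleted arrays were at 8.83 and 8.69, at 8.65, 8.65 and 8.67, and at 8.79 and 8.55. The deleted arrays lay below the controls at days 6 and 12 by little, and the difference over the 3 settings was -0.20 ± 0.12 (SE, adjusted p = 0.258, limma), with a 95% interval from -0.44 to 0.04.

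Maf moved in no fixed direction in B16. Its log2 values were 6.34 and 6.41 versus 5.71 and 5.81 early (control versus Nrp1-deleted), 6.50 and 6.59 versus 6.35 and 6.12 at day 12, and 6.01, 5.26 and 5.62 versus 5.96, 5.87 and 5.87 at day 18. The deleted arrays were below the controls early and at day 12, and at day 18 the groups overlapped with the deleted mean above the control mean. The averaged difference was -0.22 ± 0.12 (SE, adjusted p = 0.213, limma). Without the B16 day 18 arrays it was -0.46 (adjusted p = 0.0306, limma) and passed. In MC38, Maf was at 6.33 and 6.25 versus 6.6 and 6.20 at day 6 and at 6.62, 6.13 and 6.90 versus 6.36, 6.58 and 6.54 at day 12, where the groups overlapped, and at 7.00 and 6.95 versus 6.42 and 6.25 at day 18, where they did not. The day 18 difference was -0.64 ± 0.21 (SE) and missed the threshold (adjusted p = 0.0825, limma).

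PU.1 binds DNA through an ETS core, GGAA, and the sequence just before the start of transcription was searched for GAGGAA, a longer form of it. It is shown for 3 members with a large B16 difference that hold GAGGAA and for Ms4a7, which had such a difference and does not. The shorter core was not counted, and the Ms4a7 window shown holds it. The 250 bases before a start were read from RefSeq's annotation of the assembly GRCm38.p6, which had a promoter to show for 5 of the 9 genes (7 windows). They are written 5′ to 3′ on the strand of the gene, and capitals mark GAGGAA or, on the other strand, TTCCTC.
Dab2, chr15:6299539-6299788, plus strand: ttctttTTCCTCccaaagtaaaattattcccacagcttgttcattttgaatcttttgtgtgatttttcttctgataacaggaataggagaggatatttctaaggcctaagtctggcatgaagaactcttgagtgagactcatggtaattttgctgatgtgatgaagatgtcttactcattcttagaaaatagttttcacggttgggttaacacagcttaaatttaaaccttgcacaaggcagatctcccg
Cd68, chr11:69666171-69666420, minus strand: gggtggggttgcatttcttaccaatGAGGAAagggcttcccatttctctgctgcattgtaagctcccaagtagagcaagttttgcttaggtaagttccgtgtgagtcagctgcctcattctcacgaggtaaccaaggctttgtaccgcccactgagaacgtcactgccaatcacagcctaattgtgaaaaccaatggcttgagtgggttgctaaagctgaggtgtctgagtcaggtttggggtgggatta
Trem2, chr17:48346151-48346400, plus strand: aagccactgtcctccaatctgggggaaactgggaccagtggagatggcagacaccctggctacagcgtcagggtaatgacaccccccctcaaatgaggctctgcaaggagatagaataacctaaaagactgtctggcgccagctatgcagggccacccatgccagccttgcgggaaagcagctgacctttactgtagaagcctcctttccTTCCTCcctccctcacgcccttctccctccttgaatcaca
Ms4a7, chr19:11336147-11336396, minus strand: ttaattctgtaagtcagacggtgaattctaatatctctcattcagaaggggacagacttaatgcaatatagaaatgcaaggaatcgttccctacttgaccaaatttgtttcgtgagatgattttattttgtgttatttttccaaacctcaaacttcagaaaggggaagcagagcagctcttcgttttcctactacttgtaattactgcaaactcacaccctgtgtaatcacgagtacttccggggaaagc
The letters stood at -244 to -239 in Dab2, at -225 to -220 in Cd68 and at -40 to -35 in Trem2, counted back from the start, with -1 the base just before it. A window before a further start of Dab2 (chr15:6386498-6386747) held them at -249 to -244, and the windows of Ms4a7 and Mertk did not hold them. Of all 32851 promoter windows of this kind, 23.25% hold GAGGAA on either strand, so a match is common and is a description, not a binding site. The C/EBP letters TTGCNNAA were found in the Cd68 and Dab2 windows shown (9.56% of promoters hold them), the MAF recognition letters TGCTGA in the Dab2 window (16.08%), and neither TATAAA nor the E-box TCACGTG, which MITF and TFE factors bind, in any of the 7.

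Csf1r, on chromosome 18 (61105572 to 61131139, GRCm38.p6), was lower by 1.29 ± 0.11 in B16 (SE, adjusted p = 1.21e-08, limma), which is 2.45-fold. Early B16 arrays had log2 values of 6.53 and 6.33 in control and 6.02 and 6.15 in Nrp1-deleted hosts. At day 12 the control values were 8.74 and 8.91 and the deleted values 5.86 and 6.01. At day 18 the values were 8.38, 7.77 and 8.27 versus 7.70, 6.95 and 7.85. The gap was thus widest at day 12, where it was 7.42-fold, and at day 18 the groups overlapped by 1 array. The day 18 difference (-0.64, adjusted p = 0.00859, limma) lost its call without control replicate 1 (-0.52, adjusted p = 0.0582) or without deleted replicate 2 (-0.36, adjusted p = 0.0958), and when only the compared groups were fitted (adjusted p = 0.119).

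Csf1r in MC38 stood at 9.88 and 9.89 versus 10.01 and 9.55 at day 6, at 10.44, 10.28 and 10.36 versus 10.14, 10.08 and 10.05 at day 12, and at 10.30 and 10.31 versus 10.11 and 10.03 at day 18. The groups overlapped at day 6 and separated at days 12 and 18 by less than they did in B16 at day 12. The averaged difference of -0.20 ± 0.11 (SE) did not pass (adjusted p = 0.231, limma).

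Adgre1 (chromosome 17, 57358581 to 57483529) was lower by 1.58 ± 0.18 in B16 (SE, adjusted p = 3.5e-07, limma). Its control values of 7.23 and 7.03 early, 9.18 and 9.06 at day 12 and 8.78, 7.92 and 8.48 at day 18 compare with deleted values of 6.96 and 5.48, 5.96 and 6.41, and 7.49, 7.10 and 7.91. Every deleted array lay below every control array of its day, though at day 18 the margin was small. That day's difference (-0.89, adjusted p = 0.0182, limma) lost its call in 4 of the 6 fits that left out a B16 day 18 array, with adjusted p up to 0.121 (without deleted replicate 2), and under a robust variance trend. In MC38 Adgre1 had 10.36 and 10.39 versus 10.62 and 9.92 at day 6, 10.93, 10.72 and 10.66 versus 10.38, 10.58 and 10.54 at day 12, and 11.38 and 11.28 versus 10.81 and 10.48 at day 18. The deleted arrays were the lower ones at days 12 and 18, and the averaged difference was -0.35 ± 0.18 (SE, adjusted p = 0.181, limma).

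Ms4a7 (chromosome 19, 11321039 to 11336146) had the second-largest B16 difference among the 9 genes, -2.50 ± 0.21 (SE, adjusted p = 7.83e-09, limma). Early arrays overlapped, at 6.58 and 6.25 in control and 6.57 and 5.42 in Nrp1-deleted hosts. At day 12 they were at 8.96 and 8.67 versus 3.82 and 4.25, and at day 18 at 9.26, 7.35 and 8.89 versus 6.39, 6.47 and 5.82. The day 12 deleted values came close to the median of all values on the arrays, 3.64, and the log2 difference of that day, -4.79, is a lower bound of its size. In MC38 the gene was bright in every group, at 11.55 and 11.46 versus 11.21 and 10.92 at day 6, 11.55, 11.39 and 11.42 versus 11.06, 11.20 and 11.35 at day 12, and 12.14 and 12.16 versus 11.56 and 11.62 at day 18. Deleted arrays were below controls in each of these settings, by -0.41 ± 0.21 on average (SE, adjusted p = 0.185, limma). A further probe set of Ms4a7 had a mean of 3.80, near the background, and showed no called difference in B16 (-0.22, adjusted p = 0.358, limma over all probe sets).

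Cd68 (chromosome 11, 69664213 to 69666170) was lower by 1.65 ± 0.14 in B16 (SE, adjusted p = 1.21e-08, limma). The values were 9.06 and 9.28 versus 8.99 and 7.93 early, 11.21 and 11.23 versus 7.66 and 8.22 at day 12, and 10.79, 10.38 and 10.92 versus 9.78, 9.28 and 10.17 at day 18. The deleted arrays lay below the controls on all 3 days, by 9.70-fold at day 12 and 1.93-fold at day 18. In MC38 Cd68 was at 11.68 and 11.62 versus 11.68 and 11.28, at 11.68, 11.31 and 11.58 versus 11.24, 11.59 and 11.35, and at 11.92 and 11.95 versus 11.79 and 11.83 on the 3 days. Only day 18 separated the genotypes there, and the averaged difference was -0.14 ± 0.14 (SE, adjusted p = 0.564, limma).

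Dab2 (chromosome 15, 6299788 to 6440715) showed the largest B16 difference of the 9 genes, -3.31 ± 0.25 (SE, adjusted p = 2.9e-09, limma). Early control arrays had 6.50 and 6.69 and the deleted arrays 5.98 and 3.64. At day 12 the controls were at 9.89 and 10.23 and the deleted arrays at 3.70 and 4.09, which is near the background. At day 18 the values were 9.83, 9.10 and 9.83 versus 7.73, 6.79 and 8.35. The groups were apart on each day, by -6.16 on the log2 scale at day 12, a lower bound of its size given the dim deleted arrays, and by 3.91-fold at day 18. The other probe sets of Dab2 gave 8.46 and 8.76 versus 3.54 and 4.70, and 7.03 and 7.45 versus 3.21 and 3.88, at day 12, and B16 differences of -2.44 (adjusted p = 1.44e-08) and -2.12 (adjusted p = 1.36e-09, limma over all probe sets).

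In MC38 Dab2 stood at 11.08 and 11.21 versus 11.32 and 10.80 at day 6, 10.90, 10.64 and 11.15 versus 10.89, 11.09 and 10.66 at day 12, and 10.96 and 11.02 versus 10.79 and 10.82 at day 18. The genotypes overlapped on the earlier 2 days. The averaged difference was -0.09 ± 0.25 (SE, adjusted p = 0.86, limma), its 95% interval ran from -0.62 to 0.43, and the other probe sets had differences of 0.03 and 0.33, so no direction is given.

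Mertk (chromosome 2, 128698915 to 128803162) was lower by 1.72 ± 0.19 in B16 (SE, adjusted p = 4.07e-07, limma), but its course over the days differed from that of the others. Early values were 4.58 and 5.28 in control and 5.66 and 3.94 in Nrp1-deleted hosts, with full overlap. At day 12 they were 6.43 and 6.69 versus 4.11 and 4.39, and at day 18 7.81, 8.32 and 7.46 versus 5.43, 4.94 and 5.06. The differences were -2.31 at day 12 and -2.72 at day 18, while the other 7 genes that passed had numerically smaller differences at day 18 than at day 12. The change from day 12 to day 18 was not tested, since the days lie in different sets of arrays.

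Among all genes searched, the one whose values followed Mertk most closely was Mitf, a transcription factor of pigment cells that macrophages and mast cells also express (r = 0.95 over 28 arrays, each value centred on the mean of its tumour and day). Markers of melanocytic cells moved with genotype in B16: 11 of 11 measured were lower in Nrp1-deleted hosts (12.3% of all genes were). Their mean log2 value was 8.98 to 9.63 on day 18 control arrays and 5.44 to 6.40 on day 18 deleted arrays, 6.69 to 6.85 versus 4.87 to 5.63 at day 12, and 6.44 to 6.70 versus 6.32 to 7.15 early. On the MC38 arrays this mean stayed between 3.41 and 3.69, near the background. Mitf itself, a gene of the list, had a value of at least 5.33 on every one of the 28 arrays, those of MC38 included. The part of melanocytic RNA in the B16 values of Mertk, or of any other gene named here, was not tested.

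In MC38 Mertk was at 7.28 and 7.36 versus 7.49 and 7.51 at day 6, 8.31, 7.64 and 7.84 versus 7.83, 8.33 and 8.24 at day 12, and 8.45 and 8.44 versus 8.13 and 7.99 at day 18. Deleted arrays were above the controls at day 6 and below them at day 18. The averaged difference was -0.001 ± 0.19 (SE, adjusted p = 0.999, limma), with a 95% interval from -0.40 to 0.40.

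Trem2 (chromosome 17, 48346401 to 48352276) was lower by 1.89 ± 0.25 in B16 (SE, adjusted p = 2.73e-06, limma). It had 4.61 and 4.77 versus 4.94 and 3.31 early, 7.08 and 7.04 versus 3.21 and 3.69 at day 12, and 7.37, 5.40 and 7.05 versus 5.29, 4.62 and 5.40 at day 18. The groups overlapped early, and at day 18 control replicate 2 was about as low as the highest deleted array. The day 12 deleted arrays were at the background, and the log2 difference there, -3.61, is therefore a lower bound of its size. The day 18 difference (-1.51, adjusted p = 0.00473, limma) missed the threshold when only the compared groups were fitted (adjusted p = 0.054). In MC38 it had 9.94 and 9.74 versus 9.79 and 9.29, 9.89, 9.41 and 9.91 versus 9.09, 9.54 and 9.41, and 10.36 and 10.44 versus 9.91 and 9.76. The genotypes separated at day 18 only, and the averaged difference was -0.42 ± 0.25 (SE, adjusted p = 0.267, limma). A further probe set of Trem2, with a mean of 3.60, was near the background.

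**Figure D2:**
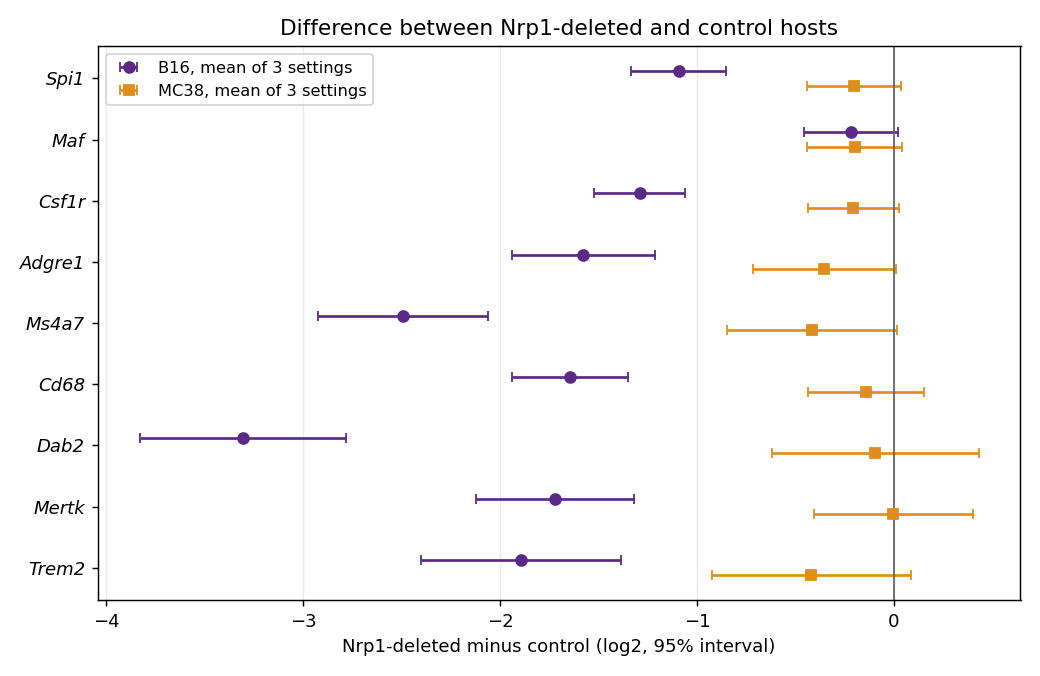
Nrp1-deleted minus control difference (x axis, log2) of the 9 genes (y axis), averaged over the 3 settings of B16 (circles) or of MC38 (squares); bars are 95% intervals of the limma fit. In B16 the intervals of all genes but Maf lie below 0, and in MC38 the intervals of all 9 include 0.

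Day by day, the difference between genotypes in B16 had its largest median over the 9 genes at day 12 (-2.93), compared with -0.57 early and -0.95 at day 18. At day 12, 8 of the 9 genes passed (9.17% of all genes were called lower), and for all 9 the deleted arrays lay below the controls, as they did for 24.1% of all genes. At day 18 the same number passed (11.3% of all genes lower), with 7 of 9 without overlap versus 15.8% of all genes. The number that passed at day 18 was 6 without day 18 control replicate 1, 5 without deleted replicate 2, and 7 without control replicate 3 or without deleted replicate 1. The early deleted arrays lay below the controls for 5 of 9 genes, and for 22.9% of all genes. In early B16 0 of the 9 passed, among 0.445% of all genes called, with 4 at an unadjusted p under 0.05 (limma). Dab2 came nearest, at -1.79 (adjusted p = 0.0933), and would have passed with array weights (adjusted p = 0.0231) or without the B16 day 18 arrays (adjusted p = 0.0479).

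The early Nrp1-deleted arrays lay far from each other, with a mean log2 value of the 9 genes of 6.32 on replicate 1, close to the early controls (6.39 to 6.42), and 5.25 on replicate 2, inside the range of the day 12 deleted arrays (5.10 to 5.46). Without replicate 1 the early differences of Adgre1 (-1.64), Cd68 (-1.24) and Dab2 (-2.96) passed (adjusted p = 0.00316, 0.0128 and 0.000142, limma). Such fits leave 1 array in the group, whose spread is assumed to be that of the other groups, so the count of early calls depends on which of these 2 arrays is kept.

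The genes rose with time in B16 tumours of control hosts. From early to day 12, 8 of 9 were higher (9.14% of all genes were), by 3.46 ± 0.47 for Dab2, 2.40 ± 0.38 for Ms4a7, 2.40 ± 0.21 for Csf1r, 2.36 ± 0.45 for Trem2, 2.15 ± 0.21 for Spi1, 2.05 ± 0.26 for Cd68, 1.99 ± 0.32 for Adgre1 and 1.63 ± 0.36 for Mertk (log2, SE, 2 arrays a group). Their adjusted p-values ran from 6.1e-08 to 0.00211 (limma), and Maf differed by 0.17 (adjusted p = 0.724). The Mertk rise lost its call without early control replicate 1 (1.28, adjusted p = 0.0617).

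No such rise was seen in Nrp1-deleted hosts. Ms4a7 fell by 1.96 ± 0.38 (SE, adjusted p = 0.000862, limma) and the other 8 genes did not pass, with differences from -0.91 for Dab2 to 0.47 for Maf (7.09% of all genes were called lower). Without early deleted replicate 2, which leaves 1 early deleted array, 5 of 9 were lower: Ms4a7 together with Mertk (-1.41), Cd68 (-1.05), Dab2 (-2.09) and Trem2 (-1.49). The change of the genotype difference between early and day 12 was itself tested, and 8 of 9 genes passed, all downward (4.41% of all genes). It was -4.38 ± 0.66 for Dab2, -4.36 ± 0.54 for Ms4a7, -3.04 ± 0.64 for Trem2, -2.57 ± 0.37 for Cd68, -2.55 ± 0.29 for Csf1r, -2.36 ± 0.30 for Spi1, -2.18 ± 0.51 for Mertk and -2.03 ± 0.46 for Adgre1 (SE). Adgre1 and Mertk lost their call in this comparison without early deleted replicate 1 (-1.29 and -1.32), Adgre1 also without day 12 deleted replicate 1 (-1.80) and Mertk without early control replicate 1 (-1.83).

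**Figure D3:**
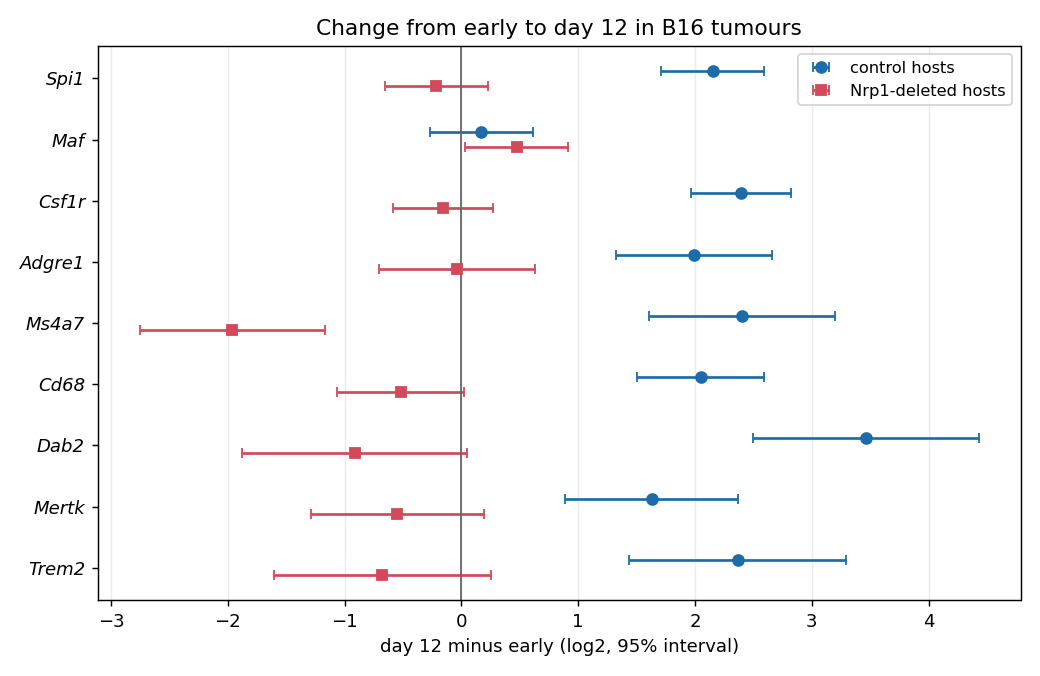
Change from early to day 12 in B16 tumours (x axis, log2) of the 9 genes (y axis) in control hosts (blue circles) and Nrp1-deleted hosts (red squares); bars are 95% intervals of the limma fit. The control intervals of all genes but Maf lie above 0, and in deleted hosts the interval of Ms4a7 alone lies below 0 and that of Maf alone above it, although Maf missed the adjusted threshold.

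Over time in MC38, fewer of the genes passed, over a different span of days and with no test between the tumours. In control hosts Maf alone passed from day 6 to day 18, by 0.69 ± 0.21 (SE, adjusted p = 0.0432, limma), where 4.4% of all genes were called higher. Mertk differed by 1.13 (adjusted p = 0.0502) and Adgre1 by 0.95 (adjusted p = 0.0699), close to the threshold. The Maf call was lost in 12 of its 38 alternative fits, each leaving out a single array, among them every array of the compared groups (adjusted p up to 0.2). Without either early B16 deleted array, Mertk and Adgre1 passed beside Maf, and 7 of the 9 genes passed when only the MC38 day 6 and day 18 control arrays were fitted. In Nrp1-deleted hosts 0 of 9 passed over the same days, with 0 at an unadjusted p under 0.05 (limma; 1.94% of all genes were called). The change of the MC38 genotype difference from day 6 to day 18 was called for 0 of 9 genes, with Maf at an unadjusted p of 0.0203, among 0.0819% of all genes.

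In the single MC38 settings 0 of 9 genes passed at day 6 (2.97% of all genes did), at day 12 (8.59%) or at day 18 (5.36%). Unadjusted p-values were under 0.05 for 0, 0 and 2 genes, the last being Adgre1 and Maf at day 18 (limma). When only the compared groups were fitted, 5 genes passed as lower at day 18, namely Ms4a7 (adjusted p = 0.000212), Trem2 (0.00135), Adgre1 (0.00176), Maf (0.0163) and Mertk (0.0308), and Maf also passed with array weights (adjusted p = 0.0116, limma). Deleted arrays lay below all controls for 2 of 9 genes at day 6, for 4 at day 12 and for 8 at day 18, and did so for 25.9%, 17.1% and 32.6% of all genes. Averaged over all 6 settings of both tumours, 8 of the 9 genes were lower (17.9% of all genes were), and Maf missed the threshold (-0.21, adjusted p = 0.0621, limma), which it passed in 6 alternative fits, 3 of them without a single array (B16 day 18 control replicate 2, MC38 day 12 control replicate 2 or MC38 day 6 deleted replicate 1).

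The absence of MC38 calls depends on how the spread was estimated. Fitted to the MC38 arrays alone, Csf1r (-0.20), Adgre1 (-0.35), Ms4a7 (-0.41), Trem2 (-0.42) and Spi1 (-0.20) passed as lower, with adjusted p-values from 0.000151 to 0.0341 (limma). Ms4a7 also passed without B16 day 18 control replicate 2 (adjusted p = 0.0339), and Maf passed at MC38 day 18 without MC38 day 12 control replicate 2 (adjusted p = 0.0444). In the model of all 28 arrays 0 of 9 had an unadjusted p under 0.05. All 9 differences were below 0 in that model, but those of Dab2 and Mertk were above 0 under other ways of treating probe sets or of scaling. Of the calls over all genes in MC38, 63.9% were downward as deposited, 46.2% after cyclic loess and 54.7% after centring each array on its 75th percentile.

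The genotype difference was larger in B16 than in MC38 for 8 of the 9 genes by a test of the difference itself (7.22% of all genes were called in that direction). With the MC38 effect subtracted, the B16 effect was -3.21 ± 0.36 for Dab2, -2.08 ± 0.30 for Ms4a7, -1.72 ± 0.27 for Mertk, -1.50 ± 0.20 for Cd68, -1.48 ± 0.35 for Trem2, -1.22 ± 0.25 for Adgre1, -1.09 ± 0.16 for Csf1r and -0.89 ± 0.16 for Spi1 (SE). Adjusted p-values ran from 4.16e-06 to 0.00498 (limma). For Maf it was -0.02 ± 0.16 (adjusted p = 0.962). The comparison uses effects measured in different sets of arrays.

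Levels in control hosts were also compared between the tumours. MC38 day 12 and B16 day 18 control arrays lie in the same set, and there 8 of 9 genes were higher in MC38 (15% of all genes were), by 3.13 ± 0.37 for Trem2, 2.95 ± 0.31 for Ms4a7, 2.38 ± 0.26 for Adgre1, 2.22 ± 0.17 for Csf1r, 1.30 ± 0.38 for Dab2, 1.14 ± 0.17 for Spi1, 0.92 ± 0.17 for Maf and 0.83 ± 0.21 for Cd68 (log2, SE, 3 arrays a group). Mertk differed by 0.07 ± 0.29 (adjusted p = 0.901, limma), with the melanocytic markers of these B16 controls at 8.98 to 9.63 as given above. The part of melanocytic RNA in these Mertk values was not tested. Tumour and day cannot be told apart in this comparison, and the Dab2 call was lost without B16 day 18 control replicate 2 (1.06, adjusted p = 0.0674).

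Inside each set the order of the group means was much alike for most members. Among early and day 12 B16 groups, day 12 control was highest for all 9 genes and did not overlap the next group for any. Day 12 deleted was lowest for 8, and its arrays overlapped those of early deleted for 6 of these 8, the exceptions being Csf1r and Ms4a7. Maf had its lowest mean in early deleted. In the set of B16 day 18 and MC38 day 12, B16 deleted was lowest for 8 genes and MC38 control highest for 8, while Mertk was highest in MC38 deleted and Maf lowest in B16 control. In the MC38 set of days 6 and 18, day 18 control was highest for 7 genes without overlap, the exceptions being Dab2 and Spi1, whose groups mostly overlapped their neighbours.

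Genes of the same pathways were counted in both tumours, without a test between them. The share over all genes, to be set beside each list count here and below, was 22.6% in B16 (12.3% lower) and 19.3% in MC38 (12.3% lower). Of 23 measured genes of a macrophage core list that leaves out the 9 members, 19 were lower and 2 higher in B16, with a median of -1.02, and 2 were lower in MC38. The largest were the complement genes C1qc (-2.13 ± 0.18), C1qa (-2.08 ± 0.20) and C1qb (-1.87 ± 0.19), and Cd14 (-2.02 ± 0.25), a co-receptor for lipopolysaccharide. In MC38 the same 4 genes had differences of -0.27, -0.25, -0.23 and -0.03, and none passed.

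Among colony-stimulating factors, their receptors other than Csf1r, and Flt3, 4 of 7 were lower in B16 and 1 higher. The receptors Csf2rb (-1.24), Csf3r (-0.83) and Csf2rb2 (-0.67) were lower, as was Flt3 (-1.95), the receptor of FLT3 ligand, which is also in the list of conventional dendritic cell markers, whereas Csf1, a ligand of CSF1R, was higher by 0.78 ± 0.16 (SE, adjusted p = 0.00082, limma). Il34, the other ligand, was near the background, at -0.002 in B16 and -0.49 in MC38 (adjusted p = 0.0316), and Csf2 did not pass in either tumour. Of the partners of Mertk, the ligand genes Gas6 (-1.36) and Pros1 (-1.28) were lower in B16 and did not pass in MC38, and the related receptor Tyro3 was near the background. The ligand genes are also made by cells other than macrophages, and which cells gave these values was not tested.

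Around Trem2, 8 of 12 genes of TREM2 and DAP12 signalling were lower in B16 and 1 higher. Apoe, a lipid carrier that TREM2 binds, was lower by 2.23 ± 0.20, Trem1 by 2.08 ± 0.32 and Trem3 by 1.44 ± 0.20 (log2, SE), and Treml4 was lower by 1.13. The adaptor gene Tyrobp was lower by 0.45 ± 0.05, far less than Trem2, and NK cells also express it. Hcst, the gene of the adaptor DAP10 of NK and T cells, was higher in B16 (0.66) and in MC38 (0.72, the only gene of the list called there). Of 20 myeloid transcription factors other than Spi1 and Maf, 11 were lower and 0 higher in B16, led by Tfec (-1.43), Irf5 (-1.36), Cebpa (-1.24) and Mef2c (-1.09). In MC38 Id3 (-0.61) and Gata6 (-0.28) were lower and Irf8 (0.23) and Nr4a1 (0.26) higher.

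The families of the other members split. Of 12 measured MS4A genes, 4 were lower in B16, namely Ms4a6c (-1.17), Ms4a6d (-1.11), Ms4a8a (-0.79) and Ms4a4c (-0.59). Higher there were Ms4a2 (1.11), a chain of the IgE receptor of mast cells and basophils, Ms4a4d (0.82) and Ms4a6b (0.30). Ms4a2 was near the background, with a mean of 3.23 and values below the median of all values on 23 of the 28 arrays. In MC38 Ms4a4b (1.07) and Ms4a8a (0.80) were higher and none was lower. Lamp1 (-0.79) and Lamp2 (-0.56), lysosomal membrane proteins related to CD68, were lower in B16. Adgre4, another member of the family of Adgre1, was higher in MC38 (0.94, adjusted p = 0.02, limma) and did not pass in B16 on average (-0.72, adjusted p = 0.0715), although it was lower at B16 day 12 (-2.45, adjusted p = 0.00139). Adgre5, a relative of Adgre1 found on many leukocytes, was higher in both tumours, by 0.20 and 0.96. Of 10 genes around Dab2 in clathrin-mediated uptake, Lrp1, an endocytic receptor, was lower by 1.62 in B16 and higher by 0.56 in MC38, Cltb (-0.32) and Ap2a2 (-0.29) were lower in B16, and Itgb1 was higher (0.20).

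Markers of other leukocytes moved in the same samples, where 22.6% of all genes were called in B16 (12.3% lower) and 19.3% in MC38 (12.3% lower). In B16, 4 of 6 monocyte markers, 7 of 10 markers of conventional dendritic cells and 5 of 6 of mature dendritic cells were lower, and 5 of 9 T cell markers and 5 of 7 mast cell and basophil markers were higher. Of the NK cell markers, Klrk1 (0.78), Klrd1 (0.71) and Gzma (0.62) were higher in B16, and the others did not pass there. At B16 day 12 the mean of the monocyte markers was 10.8 to 11.1 on control arrays and 7.59 to 8.12 on deleted arrays, and that of the 9 macrophage genes 8.44 to 8.5 versus 5.10 to 5.46. The monocyte markers split on that day. Vcan (-4.70), Chil3 (-4.55), Fn1 (-4.18) and F13a1 (-4.08) were lower. Ccr2 (-0.52, adjusted p = 0.0779) and Plac8 (-0.46, adjusted p = 0.115, limma) did not pass. At B16 day 18 the monocyte means overlapped, at 9.68 to 9.93 versus 9.02 to 10.2, while the macrophage means did not, at 7.66 to 8.46 versus 6.51 to 7.06. In MC38, 9 of 9 T cell and 7 of 7 NK cell markers were higher and of 6 monocyte markers 2 were higher, Plac8 (0.78) and Chil3 (1.20), and 0 lower. At MC38 day 18 the T cell mean was 6.93 to 7.27 on control and 8.62 to 9.19 on deleted arrays, and the macrophage mean 10.1 to 10.2 versus 9.70 to 9.81. The part of these shifts in the values of the 9 genes was not tested.

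**Figure D4:**
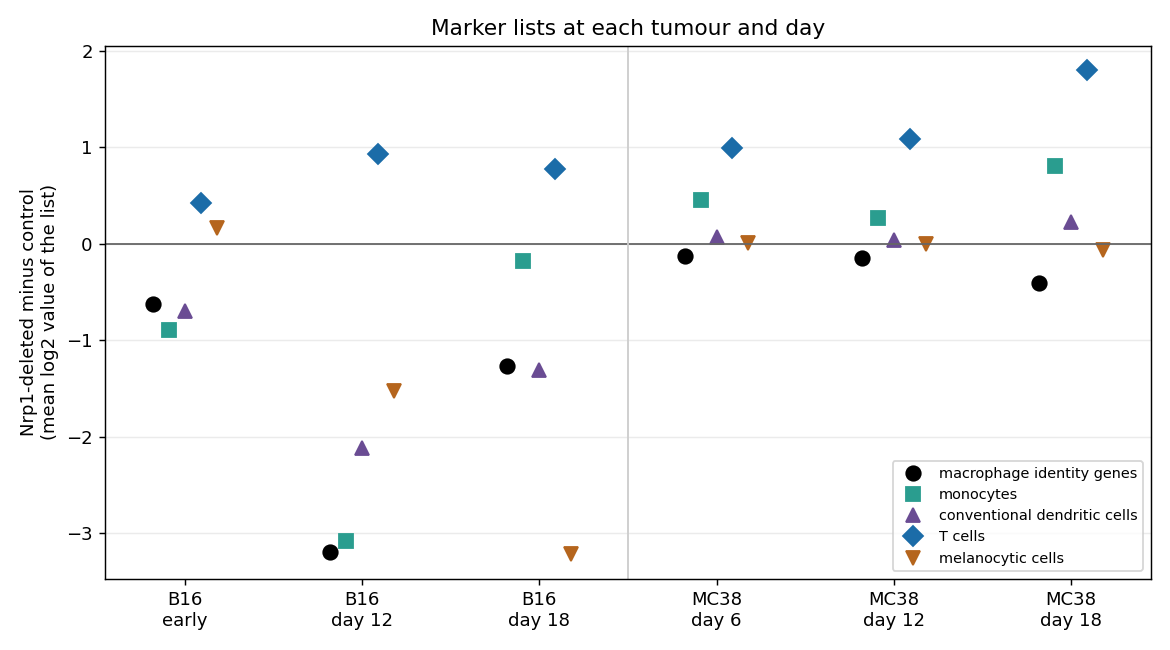
Nrp1-deleted minus control difference (y axis, mean log2 value of the measured genes of a list) in each tumour and day (x axis) for the 9 macrophage genes and 4 marker lists; each symbol is a difference of 2 group means and has no error bar. The macrophage genes and the monocyte list are both lowest at B16 day 12 (-3.20 and -3.08), the melanocytic list is lowest at B16 day 18 (-3.22), and the T cell list is above 0 in all 6 settings. The monocyte mean at B16 day 12 hides a split, since Ccr2 (-0.52) and Plac8 (-0.46) did not pass there.

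The members followed each other closely in B16 and less so in MC38. After centring on tumour and day, the median correlation over the 36 pairs of members was 0.92 on the B16 arrays and 0.64 on the MC38 arrays, as a description of arrays that share host genotype and preparation. Maf had the lowest median with the others in B16 (0.32), and Mertk the lowest in MC38 (0.31). Over all 28 arrays the genes most like each member, out of 9744 searched, were Tmem106a for Csf1r (r = 0.98) and for Spi1 (0.97), Clec4a2, a C-type lectin, for Adgre1 (0.98), C1qc for Ms4a7 (0.98) and C1qb for Trem2 (0.98). For Cd68 it was Lgmn, a lysosomal protease (0.99), and for Dab2 it was App, the amyloid precursor gene (0.99). Maf had no neighbour above 0.81 (Mfhas1). All of these values share the B16 day 12 arrays, where the members differed most between genotypes.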

How the data were processed

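The authors' deposited values are log2 expression values from RMA, a method that corrects, normalizes and summarises probes, run in the program Partek 6.6 (per the submitters' processing notes). Per the labels' protocols, RNA of sorted, uncultured cells was amplified in repeated rounds before labelling, which can distort low-abundance transcripts. Scanner files were not used here. The table held 45141 probe sets. Of these, 28898 were paired with 1 gene in an older platform annotation, and the brightest probe set (mean over 28 arrays) stood for each of 17097 genes. Quantiles of 2 arrays differed by at most 0.0918 (log2, root mean square) inside the 3 sets of arrays and by 0.119 to 0.367 between sets.

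Every difference came from limma 3.58.1 (R 4.3.3), in which each of the 12 groups had its own mean, with empirical Bayes moderation with an intensity trend and 2-sided tests adjusted by Benjamini-Hochberg at 0.05. Tested on simulated data with 200 of 17097 genes changed, it recovered 73.1% of changes of 0.5 log2 units in B16 and 77.6% in MC38. For changes of 1 log2 unit it recovered 95.5% and 98.5%, and 3.24% and 5.15% of all calls were false. The simulation gave each gene the same spread in all groups, which the real arrays need not share. Changes under 0.5 were not simulated. The 9 genes, the lists and the tests were chosen with earlier results of these data known. Named genes of the lists are the largest called differences in B16, up to 4, or any member of the colony-stimulating factor, TAM receptor and MS4A lists, and genes called in MC38 or in the opposite direction were named after their values were seen. Alternatives covered dim genes, probe sets, scaling, weights of arrays, variance models, fits to the compared groups alone, a replicate block and leaving out arrays.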

Additional observations from a re-analysis of the deposited data

Results flagged for a closer look

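The genotype difference (Nrp1-deleted minus control, log2) differed between B16 and MC38 for 8 of the 9 genes by a test of the difference. The B16 difference minus the MC38 difference was -1.09 for Csf1r, -1.22 for Adgre1, -1.72 for Mertk, -2.08 for Ms4a7, -1.50 for Cd68, -3.21 for Dab2, -1.48 for Trem2 and -0.89 for Spi1, with adjusted p-values from 4.16e-06 to 0.00498 (limma). These effects come from different sets of arrays.

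The genotype difference in B16 also changed between the early day and day 12 for the same 8 genes. The change was -2.55 for Csf1r, -2.03 for Adgre1, -2.18 for Mertk, -4.36 for Ms4a7, -2.57 for Cd68, -4.38 for Dab2, -3.04 for Trem2 and -2.36 for Spi1, with adjusted p-values from 8.85e-06 to 0.00813 (limma).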

How the results depend on the processing

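Over 37 to 39 alternative fits per comparison, 5764 of 5904 values kept their direction and their side of the threshold, 28 lost a call, 53 gained a call and 0 called values changed sign. A further 59 values changed sign without being called in either fit, at a size of at most 0.73. The count of genes called as lower in MC38 was 0, and it was 2 without the B16 day 18 arrays, 5 when only the compared groups were fitted, and 0 to 1 when single arrays were left out. The count for MC38 day 18 against day 6 in control hosts was 1, and it was 2 with dim genes left out, 3 with array weights, 4 without the B16 day 18 arrays, 7 with the compared groups only and 0 to 3 when single arrays were left out. For day 12 against early in Nrp1-deleted B16 hosts it was 1 to 5 when single arrays were left out. The mean B16 genotype count was 8 in each fit that left out a single array, the count over all 6 settings 8 to 9, that for day 12 against early in control B16 hosts 7 to 8, and that for its change with genotype 6 to 8. The deviations of same-numbered arrays from their group means had r from -0.276 to 0.196 over 14 pairs. Where a group had 2 arrays, both pairs give the same r by construction. These few values cannot show whether the numbers pair the samples. With the replicate number as a block, 8 of 9 genes were called in B16 and 0 in MC38, as without it. No paired analysis was possible for the comparisons between days because the numbers mark arrays within a tumour and day. Signals near the median of all values, 3.64, limit the differences of Dab2, Ms4a7 and Trem2 at B16 day 12, and 2 or 3 arrays a group limit the precision of each value.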
